A study of Mus musculus with 6 samples.

Results

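The kinesin family was described by every protein-coding gene whose symbol begins with Kif, which gave 41 of the 29626 genes counted. They were split by role into 13 mitotic kinesins, 17 transport kinesins, 9 kinesins of cilia or with other roles, and 2 accessory genes without a motor domain. RNA was sequenced from double-positive thymocytes, the CD4+CD8+ stage of T cell development, sorted from the thymus of mice aged 8 weeks. The KANSL1-deficient group was 3 mice with floxed Kansl1 alleles (Kansl1fl/fl) and a CD4-Cre transgene, whose recombinase is made from about the double-positive stage onward. The control group was 3 Kansl1fl/fl littermates without Cre, which the labels call WT although they carry the floxed alleles. KANSL1 belongs to the nuclear NSL complex with the histone acetyltransferase KAT8. Only the KANSL1-deficient mice carried Cre, so an effect of Cre and one of Kansl1 loss cannot be told apart.

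Kinesins are ATP-driven motors that move along microtubules. Mitotic kinesins build the spindle, move chromosomes and complete cytokinesis, and their transcripts typically accumulate late in the cell cycle. Transport kinesins carry vesicles, organelles and RNA between the cell centre and its edge. Most double-positive thymocytes are small resting cells, and the dividing ones are blasts that have recently arrived from the double-negative stage.

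Most mitotic kinesins rose in KANSL1-deficient cells. No transport kinesin passed the test, and none of 13 is near the share called over all tested genes. Of 13 mitotic kinesins, all tested, 8 were higher and none was lower (quasi-likelihood test of edgeR, p adjusted by Benjamini-Hochberg over the 15353 tested genes, threshold 0.05). Over all tested genes 6.76% were called, 3.85% higher and 2.91% lower. The 8 genes were Kif2c, Kif4, Kif11, Kif18b, Kif20a, Kif22, Kif23 and Kifc1. Of 13 tested transport kinesins none passed in either direction. Of these, 2 had an unadjusted p under 0.05 with edgeR, against 3476 of the 15353 tested genes. DESeq2 called 1 of 12 transport kinesins higher and none lower, against 1067 higher and 942 lower of 14118 genes. Limma-voom called none of the transport kinesins. The count of 8 mitotic kinesins was 5 when KANSL1-deficient replicate 1, or control replicate 2, was left out. Kif7, a cilium gene, was the 1 kinesin that fell. The median log2 fold change was 1.29 for the mitotic class, against -0.02 over all tested genes; that of the transport class was 0.03 and turned to -0.12 when libraries were scaled by their totals. In sorted bulk cells, a larger share of dividing cells and more RNA per cell cannot be told apart.

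The libraries held 19361968 to 22459830 counts. The targeted gene Kansl1 was read at 146, 168 and 188 CPM (TMM-scaled counts relative to library size) in KANSL1-deficient libraries and at 214, 189 and 230 CPM in control libraries, groups that did not overlap. Its log2 fold change of -0.33 ± 0.14 (SE) did not pass (edgeR quasi-likelihood test, adjusted p = 0.171), and whole-gene counts do not separate a deleted exon from the rest. The sorted stage was plain in its defining genes. Cd4 averaged 2441 CPM in KANSL1-deficient and 2024 CPM in control cells, and Rag1 averaged 3205 CPM in KANSL1-deficient and 3030 CPM in control cells. TMM scaling shifted the median of all genes by 0.15 on the log2 scale relative to library totals, and every fold change and CPM given here is on the TMM scale, unless another is named, whereas the deposited FPKM are not.

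Promoter sequences of members that did and did not move are shown first, since 1 short motif was common among the mitotic kinesins. The RefSeq table of promoters (build GRCm38.p6, 250 bases before to 50 bases after the annotated start) held 31 of the 41 genes and 12 of the 13 mitotic ones. TTTGAA, the core of the cell cycle genes homology region that the DREAM and MuvB complexes bind in late cell cycle genes, is in capitals on either strand (TTCAAA where it lies on the other strand). Kif4, Kif11 and Kif18b rose, whereas Kif18a and Kif20b did not pass the test.
Kif4 (chrX:100625815-100626114, plus strand): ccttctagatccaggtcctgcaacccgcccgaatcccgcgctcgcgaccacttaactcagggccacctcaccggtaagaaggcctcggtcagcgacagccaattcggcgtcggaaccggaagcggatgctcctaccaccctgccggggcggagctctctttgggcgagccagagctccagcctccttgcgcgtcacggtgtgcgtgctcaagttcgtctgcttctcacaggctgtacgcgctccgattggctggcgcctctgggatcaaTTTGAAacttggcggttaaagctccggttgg
Kif11 (chr19:37376132-37376431, plus strand): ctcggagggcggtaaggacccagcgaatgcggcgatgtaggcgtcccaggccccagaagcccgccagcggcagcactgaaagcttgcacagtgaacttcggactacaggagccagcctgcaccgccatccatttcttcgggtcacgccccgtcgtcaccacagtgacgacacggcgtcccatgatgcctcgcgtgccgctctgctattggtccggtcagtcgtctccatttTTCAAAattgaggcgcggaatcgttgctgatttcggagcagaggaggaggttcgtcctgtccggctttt
Kif18b (chr11:102925075-102925374, minus strand): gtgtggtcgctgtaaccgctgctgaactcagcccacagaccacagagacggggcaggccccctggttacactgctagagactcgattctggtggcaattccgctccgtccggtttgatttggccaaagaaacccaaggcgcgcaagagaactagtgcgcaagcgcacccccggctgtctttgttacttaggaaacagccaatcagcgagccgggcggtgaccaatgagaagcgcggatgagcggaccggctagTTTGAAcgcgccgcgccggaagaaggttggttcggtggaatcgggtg
Kif18a (chr2:109280488-109280787, plus strand): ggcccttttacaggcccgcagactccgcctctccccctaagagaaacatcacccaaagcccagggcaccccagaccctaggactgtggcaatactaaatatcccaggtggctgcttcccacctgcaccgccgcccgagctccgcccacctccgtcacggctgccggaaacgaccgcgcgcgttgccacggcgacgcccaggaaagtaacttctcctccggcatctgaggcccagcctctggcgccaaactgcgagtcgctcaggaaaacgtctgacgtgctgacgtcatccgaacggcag
Kif20b (chr19:34922108-34922407, plus strand): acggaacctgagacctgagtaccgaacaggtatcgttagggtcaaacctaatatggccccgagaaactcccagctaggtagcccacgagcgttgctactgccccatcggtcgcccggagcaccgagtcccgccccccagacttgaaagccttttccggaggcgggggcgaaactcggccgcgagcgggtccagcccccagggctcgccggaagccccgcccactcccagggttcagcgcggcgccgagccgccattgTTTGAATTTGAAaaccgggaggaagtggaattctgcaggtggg

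TTTGAA was found on either strand in 11 of these 12 mitotic kinesin promoters. It was found in 0 of 10 transport kinesin promoters, in 2 of 7 of cilium or other kinesins (Kif26b and Kif27) and in 0 of 2 of accessory genes. The share was 17.9% of all 32851 promoters in the table and 12.4% of the 12492 promoters of tested genes. A match starting within 50 bases of the annotated start was present in 9 of the 12 mitotic promoters, against 4.94% of all promoters. In Kif11 the match began 19 bases before the start and in Kif4 at base 20 of the transcript. In Kif18b it began at base 4, and Kif20b held a pair of matches, at bases 8 and 14. All 7 promoters of kinesins that rose and were in the table held it, but so did those of Kif14, Kif15, Kif20b and Kifc5b, which did not pass. Kif18a was the 1 mitotic kinesin in the table without it.

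The other 5 motifs searched on both strands were less common in the class or rarer. CCAAT, the box bound by NF-Y, was in 8 of 12 mitotic promoters and in 37.4% of all promoters. TTTGAAT, which contains TTTGAA, was in 5 of 12 and in 4.29% of all. TTCGAA was in 0 of 12, against 1.56%. The E2F-type site TTTGGCGC was in 2 of 12, Kif15 and Kif18a, against 0.514%, and TTTCGCGC was in 0 of 12, against 0.323%. The motifs were picked after the fold changes were known, and a match is a description of letters, not a bound site.

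Among the kinesins that act on kinetochores, chromosomes and the plus ends of spindle microtubules, Kif2c, Kif4, Kif22 and Kif18b rose and Kif18a did not pass. Kif2c depolymerises microtubules at centromeres and helps to correct wrong attachments (ENSMUSG00000028678, GRCm39 chromosome 4, 117016836 to 117039836). Kif2c was read at 21.3, 16.9 and 18.3 CPM in KANSL1-deficient libraries and at 4.55, 2.64 and 3.74 CPM in control libraries. The groups lay far apart, and the log2 fold change was 2.37 ± 0.28 (SE; edgeR adjusted p = 0.00308), a fold of 5.17. Kif4, a chromokinesin that shapes chromosomes and organises the central spindle (ENSMUSG00000034311, chromosome X, 99669343 to 99770820), had 29.7, 38.1 and 36.0 CPM in KANSL1-deficient and at 8.51, 6.82 and 6.25 CPM in control libraries. Its log2 fold change was 2.27 ± 0.22 (SE; edgeR adjusted p = 0.00255), with every KANSL1-deficient library above every control library. Kif4 overlaps Pdzd11 on the opposite strand, which had a log2 fold change of -0.06.

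Kif22, a chromokinesin that pushes chromosome arms toward the metaphase plate (ENSMUSG00000030677, chromosome 7, 126626901 to 126641643), had 65.8, 73.6 and 72.0 CPM in KANSL1-deficient libraries and at 42.1, 29.7 and 26.9 CPM in control libraries. All KANSL1-deficient libraries were higher, by 1.10 ± 0.19 on the log2 scale (SE; edgeR adjusted p = 0.00728). Kif18a, which dampens chromosome oscillation at the metaphase plate, did not share this rise. It was read at 21.2, 19.6 and 21.98 CPM in KANSL1-deficient libraries and at 26.4, 19.8 and 25.1 CPM in control libraries. The groups overlapped, and its log2 fold change of -0.18 had a 95% confidence interval of -0.61 to 0.24 (edgeR adjusted p = 0.651). Its relative Kif18b, which controls the length of astral microtubules (ENSMUSG00000051378, chromosome 11, 102796355 to 102815950), had 12.4, 10.7 and 12.7 CPM in KANSL1-deficient and at 5.22, 3.79 and 2.77 CPM in control libraries. That rise was 1.60 ± 0.31 on the log2 scale (SE; edgeR adjusted p = 0.0128). The call on Kif18b was lost without KANSL1-deficient replicate 1 (adjusted p = 0.0574) and without control replicate 2 (0.0591).

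The motors that keep the spindle bipolar or focus its poles also differed. Kif11 slides antiparallel microtubules apart and is the target of spindle poisons such as monastrol (ENSMUSG00000012443, chromosome 19, 37364851 to 37410307). Kif11 was read at 107, 143 and 146 CPM in KANSL1-deficient libraries and at 52.8, 28.8 and 31.1 CPM in control libraries. Control replicate 1 stood above the other controls but below every KANSL1-deficient library, and the log2 fold change was 1.82 ± 0.23 (SE; edgeR adjusted p = 0.00308). Kif15, which shares the bipolarity task with Kif11, was read at 52.0, 47.6 and 58.4 CPM in KANSL1-deficient libraries and at 40.0, 9.73 and 14.95 CPM in control libraries. The groups did not overlap, yet the spread among controls left the log2 fold change of 1.29 ± 0.39 short of the threshold (edgeR adjusted p = 0.0683). Without control replicate 1 it was 2.08 and passed (adjusted p = 0.00206).

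Kifc1, a minus-end directed motor that focuses spindle poles (ENSMUSG00000079553, chromosome 17, 34094633 to 34109635), had 33.1, 35.3 and 33.6 CPM in KANSL1-deficient libraries and at 20.6, 11.6 and 13.1 CPM in control libraries. The log2 fold change was 1.17 ± 0.23 (SE; edgeR adjusted p = 0.0140). That call was lost without KANSL1-deficient replicate 1, KANSL1-deficient replicate 2 or control replicate 2 (adjusted p = 0.0544, 0.0634 and 0.0648). Kifc5b, a closely similar gene on the same chromosome, was read at 6.10, 4.10 and 3.20 CPM in KANSL1-deficient libraries and at 5.51, 3.96 and 5.32 CPM in control libraries, which overlapped (log2 fold change -0.14, 95% confidence interval -0.93 to 0.65). The treatment of reads matching both copies is not stated, so the values of this pair are uncertain.

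**Figure D1:**
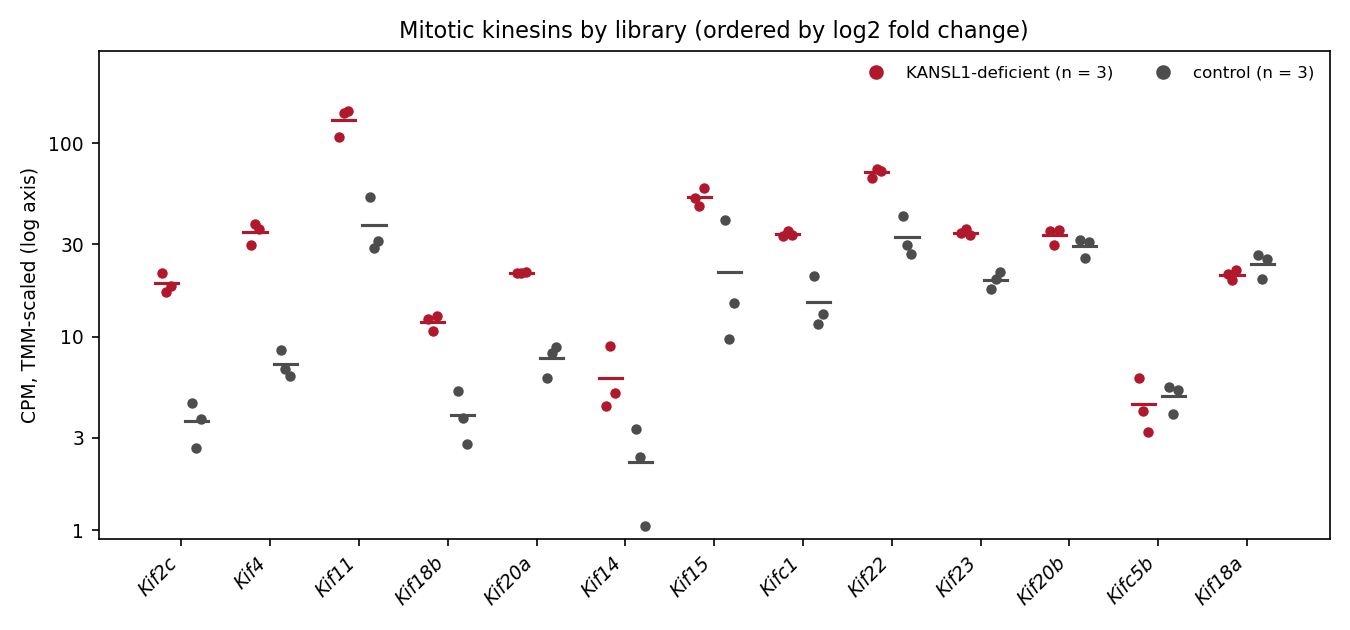
TMM-scaled CPM on a log axis for the 13 mitotic kinesins in each library, with KANSL1-deficient libraries (red, n = 3) left of control libraries (grey, n = 3) and bars at the group means. From Kif2c to Kif23 every red point lies above every grey point, whereas the points of Kif20b, Kifc5b and Kif18a overlap.

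Of the 4 kinesins of the central spindle and cytokinesis described next, Kif20a and Kif23 rose. Kif20a organises the central spindle and recruits Polo-like kinase (ENSMUSG00000003779, chromosome 18, 34757666 to 34766330). Kif20a was read at 21.3, 21.3 and 21.5 CPM in KANSL1-deficient libraries and at 6.09, 8.19 and 8.88 CPM in control libraries. The KANSL1-deficient libraries were nearly equal, and the log2 fold change was 1.47 ± 0.23 (SE, edgeR adjusted p = 0.00600). Kif20a overlaps Cdc23 on the opposite strand, which had 5455 counts over all libraries against 1827 for Kif20a. Cdc23 had a log2 fold change of 0.37 (edgeR adjusted p = 0.259), and strand was not stated for the counts. Kif23, which forms the centralspindlin complex with Racgap1 (ENSMUSG00000032254, chromosome 9, 61823187 to 61854056), had 34.3, 35.8 and 33.4 CPM in KANSL1-deficient libraries and at 17.7, 19.8 and 21.6 CPM in control libraries. Its log2 fold change of 0.81 ± 0.18 (SE; edgeR adjusted p = 0.0215) was the smallest of the 8 that passed, and it missed the threshold without any 1 of the KANSL1-deficient libraries (adjusted p = 0.0567 to 0.0931) or without control replicate 2 (0.0747). Kif14, which works with citron kinase in late cytokinesis, was read at 4.38, 8.91 and 5.11 CPM in KANSL1-deficient and at 3.34, 2.38 and 1.06 CPM in control libraries. These did not overlap, but the log2 fold change of 1.44 ± 0.47 did not pass with edgeR (adjusted p = 0.0856) and did with DESeq2 (adjusted p = 0.0304).

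Kif20b, an abscission kinesin related to Kif20a, was read at 34.9, 29.6 and 35.6 CPM in KANSL1-deficient libraries and at 31.4, 25.5 and 31.0 CPM in control libraries. The groups overlapped, and its log2 fold change of 0.19 had a 95% confidence interval of -0.20 to 0.58 (edgeR adjusted p = 0.601). Kif18a, Kif20b and Kifc5b did not pass while a relative of each rose, and the difference itself was compared as a ratio within each library for these 3 pairs, chosen after the fold changes were seen. The log2 ratio of Kif18a over Kif18b was 0.81 ± 0.06 in KANSL1-deficient and 2.63 ± 0.47 in control libraries (SD, n = 3 each; exact two-sided permutation test, p = 0.1). That of Kif20b over Kif20a was 0.64 ± 0.14 in KANSL1-deficient and 1.94 ± 0.38 in control libraries (exact permutation p = 0.1). That of Kifc5b over Kifc1 was -2.98 ± 0.49 in KANSL1-deficient and -1.58 ± 0.30 in control libraries (exact permutation p = 0.1). Each ratio was lower in all 3 KANSL1-deficient libraries than in all 3 controls. In the exact permutation test 0.1 is the smallest p that 3 against 3 libraries allow, and it stayed 0.1 after adjustment over the pairs. Each pair was picked because 1 member rose and the other did not in these same libraries, so this separation was likely beforehand. The p-values therefore describe the ratios and are not an independent test of the difference.

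Without overlap between the groups, 10 of 13 mitotic kinesins were higher and none lower, against 14.6% of all tested genes higher and 14% lower. Variation within the control group had a pattern of its own. Control replicate 1 was the highest control for 11 of the 13 mitotic kinesins, and control replicate 2 the lowest for 7. The class averaged, in log2 CPM minus the mean of the 3 controls, 1.18, 1.22 and 1.20 in KANSL1-deficient replicates 1 to 3 and 0.33, -0.20 and -0.13 in control replicates 1 to 3. The KANSL1-deficient libraries thus lay within a narrower band than the controls. Kif20a and Kif23 did not follow the control order, since control replicate 1 was the lowest control for both.

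**Figure D2:**
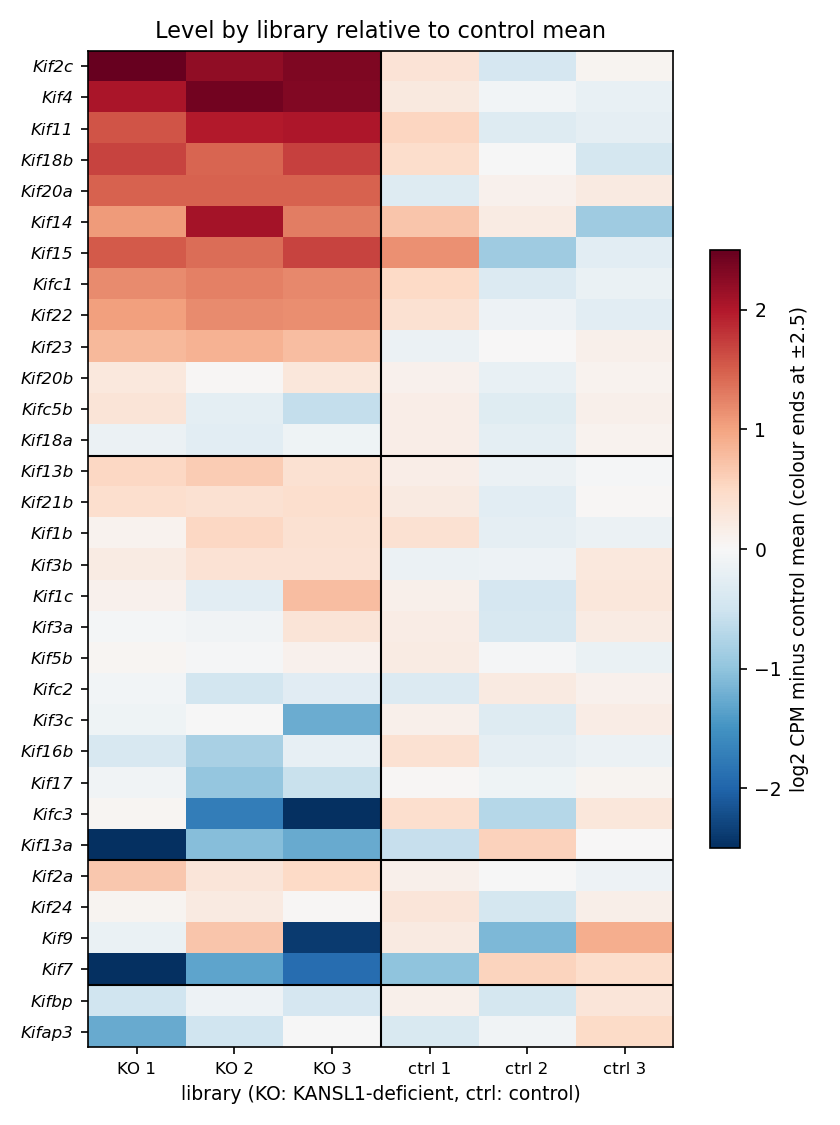
Log2 CPM of each of the 32 tested kinesin genes in each library minus the mean of the 3 controls, with KANSL1-deficient libraries in the left columns and controls in the right columns; horizontal lines part the mitotic, transport, cilium or other, and accessory classes, and colour ends at ±2.5. The upper rows of the mitotic block are red in all 3 KANSL1-deficient libraries, and control replicate 1 is the reddest control in 11 of the 13 mitotic rows.

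The transport kinesins held most of the kinesin RNA. None of the 13 tested passed the threshold, which is near the 6.76% called over all tested genes. Kif5b, the ubiquitous kinesin-1 heavy chain, was the most abundant kinesin, at 64.6 ± 4.09 FPKM in KANSL1-deficient and 70.4 ± 10.4 FPKM in control cells (SD, n = 3 each; FPKM are per kilobase and compare genes). Its CPM were 547, 516 and 569 in KANSL1-deficient and 613, 517 and 470 in control libraries, which overlapped. The log2 fold change of 0.03 had a 95% confidence interval of -0.25 to 0.30 (edgeR adjusted p = 0.934), and it turned to -0.12 with library totals. Its neuronal relatives Kif5a and Kif5c were too low to test, with 6 and 24 reads in the KANSL1-deficient libraries together and 47 and 45 reads in the control libraries together.

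Kif21b, which limits microtubule growth and in T cells helps to move the centrosome to the synapse, was the next most abundant at 20.1 ± 0.606 FPKM in KANSL1-deficient and 17.03 ± 3.11 FPKM in control cells (SD, n = 3 each). It was read at 261, 253 and 261 CPM in KANSL1-deficient libraries and at 229, 164 and 198 CPM in control libraries. The groups did not overlap, but at 0.39 ± 0.14 the log2 fold change missed the threshold (edgeR adjusted p = 0.109). Kif13b, a kinesin-3 vesicle motor, was read at 69.4, 75.1 and 63.1 CPM in KANSL1-deficient and at 53.8, 43.7 and 47.5 CPM in control libraries; it is named because 1 tool called it. Its log2 fold change of 0.52 ± 0.15 did not pass with edgeR (adjusted p = 0.0613) and passed with DESeq2 (adjusted p = 0.0166).

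The kinesin-2 motor is a trimer of Kif3a, Kif3b or Kif3c, and the accessory subunit Kifap3. Kif3b was read at 44.4, 49.7 and 49.6 CPM in KANSL1-deficient libraries and at 34.7, 35.4 and 46.0 CPM in control libraries, which overlapped (log2 fold change 0.31, edgeR adjusted p = 0.321). Kif3a was read at 17.1, 16.8 and 22.4 CPM in KANSL1-deficient and at 20.4, 13.5 and 20.5 CPM in control libraries (log2 fold change 0.05, edgeR adjusted p = 0.941; -0.10 with library totals). Kifap3 had the lowest level of the trimer's genes, at 0.670 ± 0.296 FPKM in KANSL1-deficient and 1.09 ± 0.348 FPKM in control cells (SD, n = 3 each), and its log2 fold change was -0.56 (edgeR adjusted p = 0.512). Kifbp, which binds kinesin motor domains and blocks them, had a log2 fold change of -0.38 (edgeR adjusted p = 0.631). The other tested transport kinesins, Kif1b, Kif1c, Kif3c, Kif13a, Kif16b, Kif17, Kifc2 and Kifc3, had log2 fold changes from -1.89 to 0.32, and the lowest belonged to Kif13a, with 40 reads in KANSL1-deficient and 161 in control libraries.

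**Figure D3:**
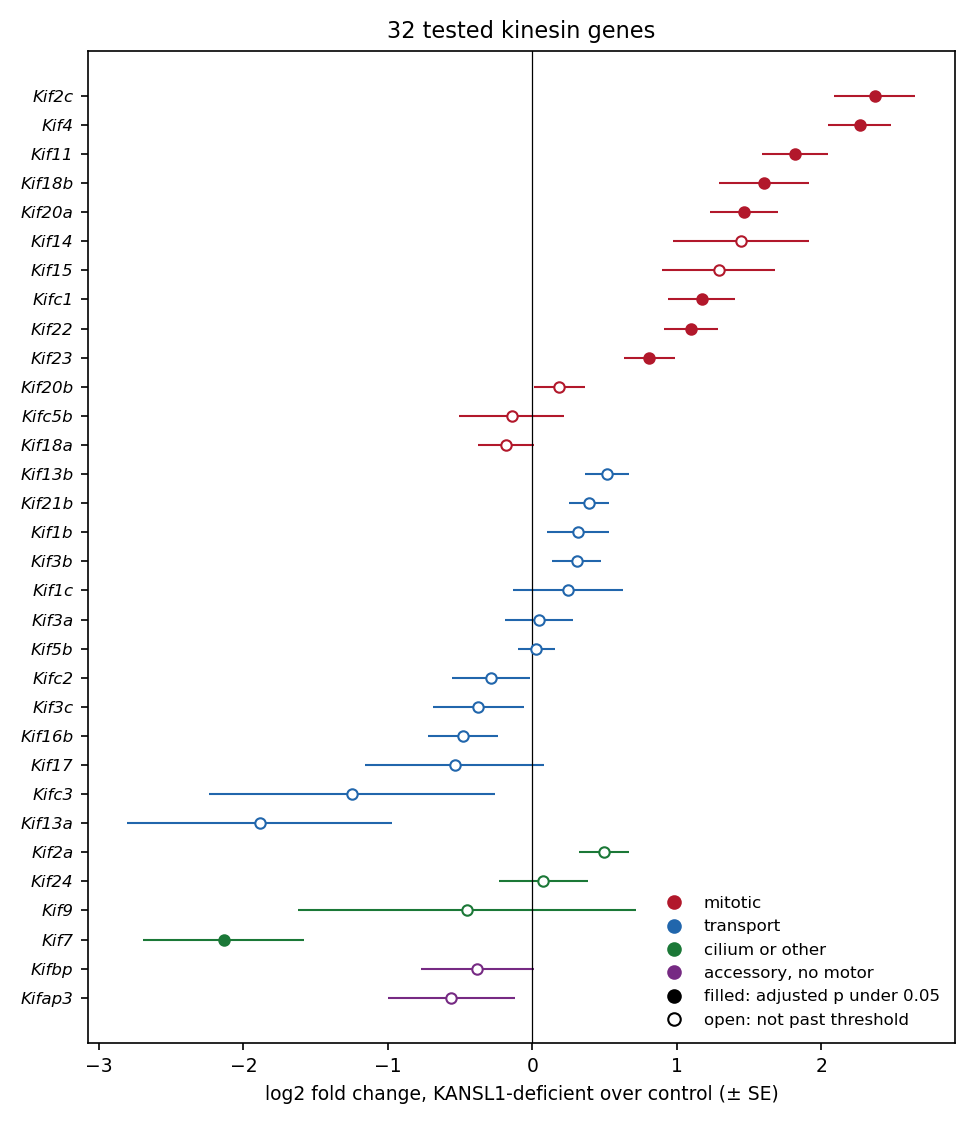
Log2 fold change (KANSL1-deficient over control, bars are ± SE) of the 32 tested kinesin genes by class, with filled points past the adjusted threshold. The filled points are 8 mitotic kinesins between 0.81 and 2.37 and Kif7 at -2.14; the 13 transport kinesins are all open.

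Outside both classes, Kif7 fell. Kif7 acts at the tip of the primary cilium in Hedgehog signalling (ENSMUSG00000050382, chromosome 7, 79347846 to 79365468). Kif7 was read at 0.541, 1.93 and 1.25 CPM in KANSL1-deficient libraries and at 2.42, 7.31 and 6.73 CPM in control libraries, with 77 reads in KANSL1-deficient and 369 in control libraries together. The groups did not overlap, and the log2 fold change was -2.14 ± 0.56 (SE; edgeR adjusted p = 0.0412). The call was lost without any 1 of the KANSL1-deficient libraries (adjusted p = 0.0702 to 0.139), without control replicate 2 (0.143) and without control replicate 3 (0.112). Kif7 overlaps Ticrr on the opposite strand, which rose by 1.13 (edgeR adjusted p = 0.0480), and strand was not stated for the counts.

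Kif2a, a microtubule depolymerase used in interphase and on the spindle, was read at 50.4, 38.9 and 44.7 CPM in KANSL1-deficient libraries and at 34.7, 31.3 and 29.2 CPM in control libraries. Without overlap, its log2 fold change of 0.49 ± 0.17 did not pass with edgeR (adjusted p = 0.105) and did with DESeq2 (adjusted p = 0.0478). Kif24, a centriolar inhibitor of cilium formation, had a log2 fold change of 0.08 and Kif9, a motile cilium kinesin, of -0.45. The remaining cilium or other kinesins, Kif12, Kif19a, Kif19b, Kif26b and Kif27, and the transport kinesins Kif5a, Kif5c, Kif21a and Kif28 were not tested because they were too low. These 9 genes had 0 to 32 reads in any library.

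The make-up of the kinesin RNA differed between the genotypes. Summed over the mitotic class, the level was 69.3, 75.9 and 79.1 FPKM in KANSL1-deficient libraries and 44.9, 29.4 and 32.6 FPKM in control libraries. Kinesins outside the class summed to 118, 115 and 127 FPKM in KANSL1-deficient and 140, 114 and 119 FPKM in control libraries, which overlapped. Mitotic kinesins thus made up 37.0%, 39.7% and 38.4% of the summed kinesin FPKM in KANSL1-deficient libraries and 24.2%, 20.6% and 21.5% in control libraries. Kif11 and Kif22 were the most abundant mitotic motors per length in both groups, at 16.8 ± 3.02 and 13.6 ± 0.997 FPKM in KANSL1-deficient and 5.31 ± 1.95 and 7.07 ± 1.83 FPKM in control cells (SD, n = 3 each). Their order was Kif11 above Kif22 in KANSL1-deficient means and Kif22 above Kif11 in control means, where the gap was smaller than the spread.

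**Figure D4:**
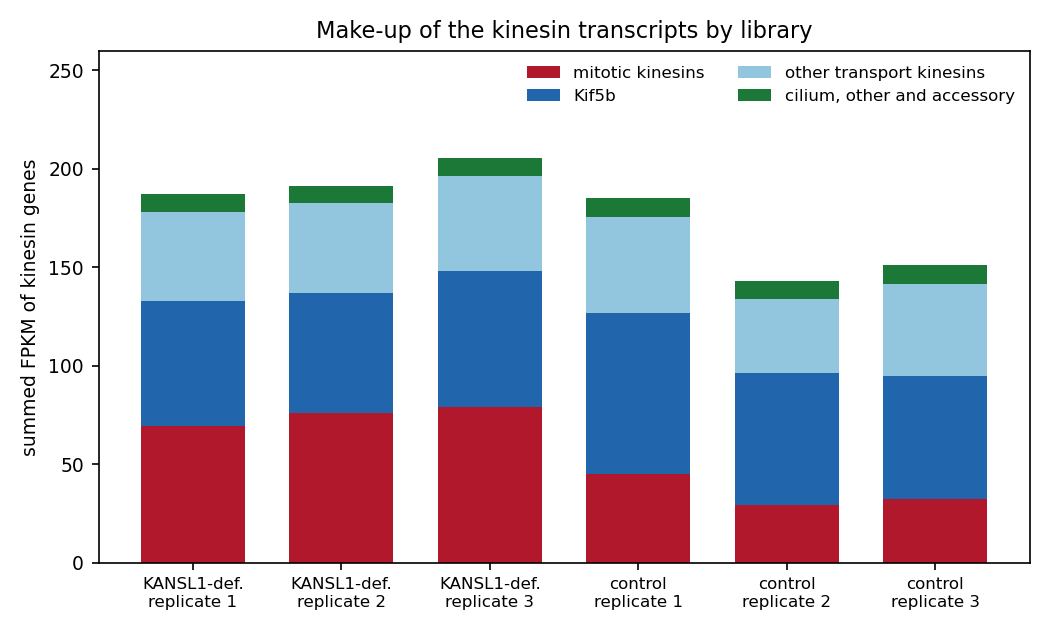
Deposited FPKM summed over kinesin genes in each library, KANSL1-deficient libraries left of controls, divided into mitotic kinesins (red), Kif5b (dark blue), other transport kinesins (light blue) and the cilium, other and accessory genes (green). The red part is 69.3 to 79.1 in KANSL1-deficient libraries and 29.4 to 44.9 in controls.

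Other genes of mitosis and the cell cycle rose as well. The list named mitotic partners joins spindle, central spindle and cytokinesis genes with general genes of dividing cells, such as Mki67, Cdk1 and Ccnb1. It is thus not a list of kinesin binding partners alone. Of its 25 genes, 23 were higher and none lower, against 3.85% higher and 2.91% lower over all tested genes. The 25 genes had a median log2 fold change of 1.65. By smallest p these were led by Nusap1, a spindle microtubule binder (2.48 ± 0.27, SE), Top2a, a topoisomerase (1.92 ± 0.23), Aurkb, the passenger complex kinase (2.26 ± 0.30), and Ect2, the activator of RhoA at the cell equator (1.45 ± 0.20). Direct partners were looked at after their values had been seen. Racgap1, which binds Kif23, was read at 81.4, 75.4 and 59.7 CPM in KANSL1-deficient libraries and at 35.6, 15.8 and 24.3 CPM in control libraries. Tpx2, a partner of Kif11 and Kif15, had a log2 fold change of 2.26, Prc1, which recruits Kif4 to the central spindle, of 1.67, and the citron kinase gene Cit, partner of Kif14, of 1.43, each past the threshold (edgeR adjusted p = 0.00829, 0.00775 and 0.0395). Cenpe, a kinesin of the kinetochore whose symbol does not begin with Kif, was read at 65.3, 74.8 and 102 CPM in KANSL1-deficient and at 35.9, 19.8 and 13.1 CPM in control libraries. The 2 listed genes that did not pass were Ckap5 (0.52) and Numa1 (0.22). The list's average log2 CPM minus the mean of the 3 controls was 0.62 in control replicate 1, the control in which most mitotic kinesins were highest, and -0.29 and -0.33 in control replicates 2 and 3.

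Partners of the transport kinesins, dynein and tubulin genes were read against the 3.85% higher and 2.91% lower over all tested genes. Of 23 tested genes listed for cargo binding and as light chains, 1 rose (Dennd4a, log2 fold change 0.83, edgeR adjusted p = 0.0297) and none fell. Whether Dennd4a serves a kinesin was not tested, and its place on the list does not make it a cargo adaptor. Madd, also listed, had a log2 fold change of 0.30 (edgeR adjusted p = 0.229). The kinesin light chain genes Klc1 to Klc4 had log2 fold changes of 0.20, -0.46, 0.45 and 0.14, none past the threshold. Of 30 tested genes of dynein, the opposing motor, and its cofactor dynactin, 2 rose and none fell. They were Spdl1 (1.46), which brings dynein to kinetochores, and the light chain gene Dynlt1b (1.29), one of several similar copies. The dynein heavy chain gene Dync1h1 had a log2 fold change of 0.04. Of 24 tested tubulin and microtubule genes, a list that includes the targeted gene Kansl1 and its complex partner Kansl3, 7 rose and none fell, led by the microtubule destabiliser Stmn1 (1.05), Tuba1b (1.49), Tubb5 (0.82) and Tubb4b (0.82). Medians of these lists were 0.06, 0.04 and 0.28, and tubulin genes are similar to each other in sequence.

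**Figure D5:**
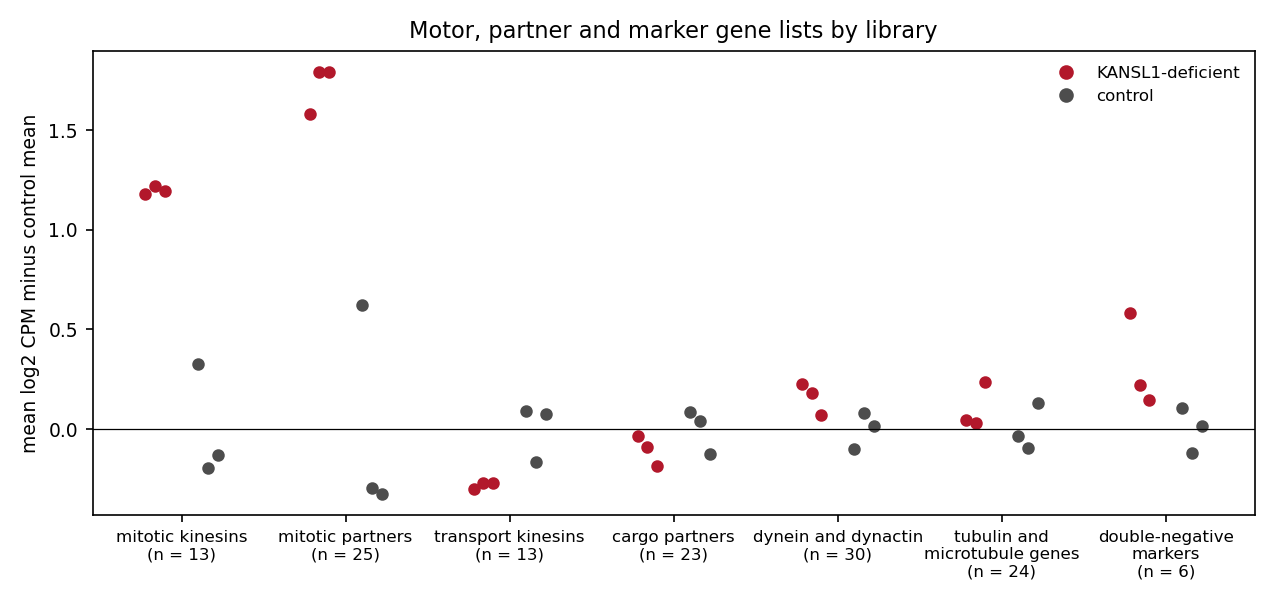
Mean log2 CPM of the tested genes of each list minus the control mean, 1 point per library, KANSL1-deficient (red) left of control (grey), with the number of genes under each name. Mitotic kinesins and mitotic partners lie between 1.18 and 1.79 in KANSL1-deficient libraries. Transport kinesins lie at -0.30, -0.27 and -0.27 in KANSL1-deficient replicates 1 to 3 and at 0.09, -0.17 and 0.07 in control replicates 1 to 3, without overlap. Low genes weigh in that mean, and Kif13a alone was -4.66 in KANSL1-deficient replicate 1. Double-negative markers lie at 0.58, 0.22 and 0.14 in KANSL1-deficient and at 0.10, -0.12 and 0.02 in control replicates 1 to 3. The cargo, dynein and tubulin means stay within 0.24 of 0 in every library. These means give every gene equal weight, and 7 of the 24 tubulin and microtubule genes rose. Summed, that list was 1537 to 1656 FPKM in KANSL1-deficient and 1072 to 1248 FPKM in control libraries.

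Markers of other cells in the sort moved in part with these genes, and their part in the result was not tested. Of 6 tested double-negative markers none passed, and 5 of the 6 had a positive log2 fold change. Summed with the untested Il7r, the list reached 33.8 to 41.3 FPKM in KANSL1-deficient and 25.6 to 31.4 FPKM in control libraries. Most of this sum was Ptcra alone, at 25.1 ± 3.20 FPKM in KANSL1-deficient and 18.1 ± 2.10 FPKM in control cells (SD, n = 3 each). Ptcra was also the 1 tested member whose groups did not overlap. Ptcra, the pre-T cell receptor alpha chain, had 38.5, 29.4 and 34.0 CPM in KANSL1-deficient libraries and 23.9, 19.6 and 22.5 CPM in control libraries, which did not overlap (log2 fold change 0.63, edgeR adjusted p = 0.0650). Il2ra, the CD25 gene, had a log2 fold change of 0.49 (edgeR adjusted p = 0.351). Il7r, too low to test, had 1 read in KANSL1-deficient and 27 in control libraries together. Of 4 tested members of the CD4 single-positive list 2 were higher and none lower, against 3.85% higher and 2.91% lower over all tested genes. Gata3 was among those higher (log2 fold change 0.87, edgeR adjusted p = 0.00644). This list summed to 118 to 141 FPKM in KANSL1-deficient and 71.6 to 87.0 FPKM in control libraries. Its defining gene Zbtb7b had 1 read in KANSL1-deficient and 0 in control libraries together. Of 4 tested members of the CD8 list 1 was higher and none passed as lower, while 2 were lower without overlap between the groups. The CD8 list summed to 67.1 to 91.7 FPKM in KANSL1-deficient and 46.9 to 55.3 FPKM in control libraries, a sum led by 1 member shared with the CD4 list. Nkg7 had 0 reads in KANSL1-deficient and 3 in control libraries. Of 3 tested members of the B cell list 1 was higher, Ighm (log2 fold change 0.74, edgeR adjusted p = 0.0166). Pax5 had 3 reads in KANSL1-deficient and 0 in control libraries. The gamma-delta and NK list summed to 36.7 to 73.8 FPKM in KANSL1-deficient and 24.2 to 33.6 FPKM in control libraries, led by Gzma, with 1 of 3 tested members higher and 0 reads of Ncr1 in KANSL1-deficient and 5 in control libraries. Of the regulatory T cell list 1 of 3 tested members was higher, and none passed in the macrophage, erythroid, epithelial and stromal lists.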

How the data were processed

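The genome build GRCm39 and the tools STAR, featureCounts and DESeq2 come from the submitters' processing notes, without versions or a strand setting. The authors deposited whole-number counts per gene, FPKM values, and their own comparison with a mean normalized signal, a fold change as a ratio, its log2 value, and p-values, which was not used here. Libraries were prepared from polyadenylated RNA, per the labels' protocols.

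The deposited counts were tested with edgeR 4.0.16 in R 4.3.3 (quasi-likelihood, robust; TMM; default low-count filter with minimum count 10 and minimum total 15; Benjamini-Hochberg at 0.05; limma 3.58.1 and DESeq2 1.42.0 as alternatives). Standard errors are the log2 fold change divided by the square root of F. Members, role classes, lists and tests were chosen with earlier results of these data known. Named in full were all mitotic kinesins, other kinesins past the threshold and the 5 most abundant others. The labels name mice of each group by number without stating a shared litter or day, so groups were compared unpaired. No 2 libraries matched within counting noise. CPM precision is limited by counting error as well as by 3 mice per group. Some genes of the marker lists are not reported here.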

Additional observations from a re-analysis of the deposited data

How the results depend on the processing

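Under 18 alternatives (scaling, filters, DESeq2 and limma-voom, log2 FPKM plus 1 or 0.1, replicate block, trends on GC content or abundance added after seeing the data, and each library left out), Kif2c, Kif4, Kif11, Kif20a and Kif22 passed in all 18, Kif18b in 16, Kifc1 in 15, Kif23 in 10 and Kif7 in 8 of the 17 that gave it a value. The number of mitotic kinesins higher was 7 to 10 with all libraries and 5 to 9 with 1 left out (5 lacking KANSL1-deficient replicate 1 or control replicate 2); none was lower in any. Other kinesins higher were 2 with DESeq2 (Kif2a and Kif13b), 1 with the 5 CPM filter (Kif13b) and 0 otherwise; other kinesins lower, Kif7 in the main fit, were 0 with that filter, limma-voom, either FPKM scale or the abundance trend removed, and 0 to 1 with 1 library left out. The cause was not tested.

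All genes higher and lower were 591 and 447. They were 1067 and 942 with DESeq2, 367 and 959 with library totals (27.7% higher, against 56.9% with TMM), and 884 and 845 with no filter. The 5 CPM filter gave 806 and 740, log2(FPKM + 1) 300 and 653, and log2(FPKM + 0.1) 277 and 603. With 1 library left out they were 169 to 447 and 86 to 381. With the replicate block they were 242 and 164, and with the GC trend removed as well 242 and 144. The block left 8 mitotic kinesins higher, lost Kif23 (adjusted p = 0.0686) and gained Kif15 (0.0428). Deviations of same-numbered libraries correlated at -0.05, -0.02 and -0.10, which gave no sign of pairing; the labels do not say what the numbers share. Kansl1 kept its sign and side throughout (-0.43 to -0.24 with 1 library left out).

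Signs were followed over the alternatives for 19 of the 32 tested kinesins, those named in full. Among these, signs that turned were all of kinesins that did not pass. Kif3a was -0.10 with library totals, -0.077 and -0.088 on the FPKM scales, and -0.15 to 0.14 with 1 library left out (below 0 without KANSL1-deficient replicate 3 or control replicate 2). Kif5b was -0.12, -0.11 and -0.11 on the same 3 scales, -0.23 with the abundance trend removed, and -0.063 to 0.13 with 1 library left out (below 0 without control replicate 2 or 3). Kifc5b was -0.43 to 0.054 with 1 library left out (above 0 without KANSL1-deficient replicate 3).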
